A study of Mus musculus with 10 samples.

Results

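The urea cycle and ammonia genes examined here are 10 named genes: Cps1, Otc, Ass1, Asl, Arg1, Nags, Glul, Gls2, Glud1 and Oat. The list was drawn up with earlier results of these data known, and its genes were then found by symbol in the annotation of the array, with no threshold on a measured value. That annotation gave 11 probe sets for 9 of the 10 genes, out of 27541 probe sets in all, and 8 of the 9 had a probe set of their own and entered the fit over 19933 genes. Both probe sets of Ass1, the argininosuccinate synthase gene, also carry the symbol Gm5424, so their signal cannot be given to Ass1 alone. No probe set carried the symbol Gls2, the liver-type glutaminase gene, which is not analysed here.

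Liver RNA was measured in 5 Nr1d1 -/- (KO) and 5 wild-type (WT) mice, with 1 Affymetrix Mouse Gene 1.0 ST array for each mouse. All were male C57Bl/6 mice, 10 to 12 weeks old, on normal chow and a cycle of 12 h light and 12 h dark, and were killed at ZT10, which is 10 h after lights on. Nr1d1 encodes Rev-erb alpha, a nuclear receptor that represses transcription as part of the circadian clock. The KO line had been backcrossed for at least 7 generations while the WT mice were purchased, so genotype and source of the animals cannot be told apart.

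The urea cycle turns ammonia, released when amino acids are broken down, into urea, and runs mainly in hepatocytes near the portal vein. Its first steps lie in the mitochondrion, where NAGS makes the activator of CPS1, CPS1 joins ammonia with bicarbonate, and OTC adds the product to ornithine. ASS1, ASL and ARG1 complete the cycle in the cytosol. Ammonia that escapes is bound by glutamine synthetase (GLUL) in a thin layer of hepatocytes around the central vein, where OAT, which takes ornithine out of the cycle, is also found. GLUD1 and GLS2 release ammonia from glutamate and glutamine.

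Values are log2 of the deposited normalized intensities, differences are KO minus WT with the standard error (SE) of the limma fit, and the call threshold was 0.05 for the limma p after Benjamini-Hochberg adjustment across the whole fit. Arntl, a clock gene that Rev-erb alpha represses, was 4.38-fold higher in KO livers (adjusted p = 3.2e-06), while the Nr1d1 probe set itself read 9.92 ± 0.45 in KO and 9.78 ± 0.16 in WT livers (SD, n = 5 each), and the sources used here do not say whether it covers the deleted part. KO replicates 4 and 5 and WT replicate 1 had the widest spread of values on an array, with interquartile ranges of 2.96, 2.99 and 2.98 against 2.80 to 2.94 on the others. All 10 hepatocyte markers were measured, none was called, and their mean level lay between 13.63 and 13.66 in KO and between 13.64 and 13.66 in WT livers. The highest value on any array lay between 14.09 and 14.16, close to the readings of Cps1, and how far bright probe sets are compressed was not tested.

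In limma, 0 of the 8 urea cycle and ammonia genes in the fit were called changed, against 5.61% of all genes, and a count of 0 among 8 is near that background. At an unadjusted p under 0.05 there were 2, Glud1 and Oat, against 17.4% of all genes. The 95% interval of each of the 8 differences lay inside a 1.5-fold change in either direction, between 0.776-fold and 1.21-fold, which held for 95.7% of all genes. The median difference was 0.027 over the 8 genes and 0.0083 over all genes, and the median size of the difference was 0.069 over the 8 and 0.058 over all. In a liver homogenate fewer cells of a kind and less RNA in each cell cannot be told apart.

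**Figure D1:**
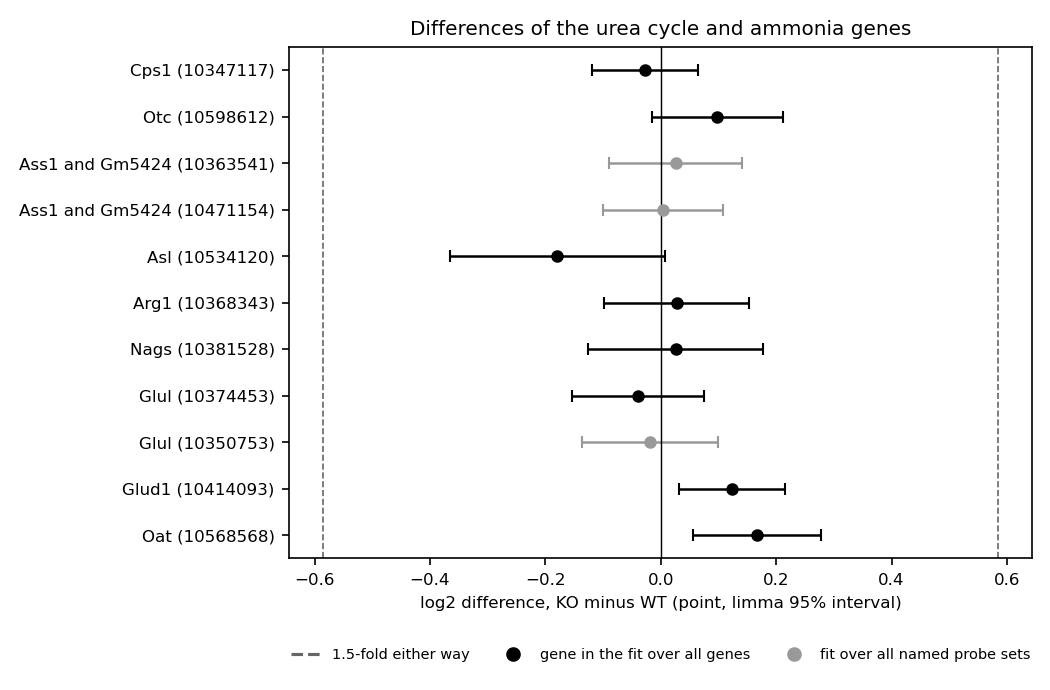
Difference of each probe set between KO and WT livers on the log2 scale (horizontal axis, KO minus WT), with points for the limma estimate and bars for its 95% interval, 5 mice per group. Every interval lies inside the dashed lines at 1.5-fold, and those of Glud1 and Oat lie above 0.

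None of the genes of the mitochondrial entry to the cycle passed the test, and each of their intervals spans no change. Cps1, which encodes the carbamoyl phosphate synthetase of the first committed step, read 13.78, 13.77, 13.66, 13.77 and 13.79 in KO livers, against 13.82, 13.79, 13.81, 13.77 and 13.73 in WT livers. The groups overlapped, with KO replicate 3 below every other array. The difference was -0.027 with SE 0.043, a ratio of 0.981 with a 95% interval of 0.920 to 1.05 (limma adjusted p = 0.847).

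Nags, the gene of the enzyme that makes N-acetylglutamate for CPS1, read 10.31, 10.01, 10.09, 10.34 and 10.25 in KO livers, against 10.21, 10.16, 10.06, 10.16 and 10.29 in WT livers. KO livers lay on both sides of the WT range, 2 above it and 1 below. The ratio was 1.02 with a 95% interval of 0.917 to 1.13 (limma adjusted p = 0.920). The difference of 0.026 turned its sign under 5 of the 20 alternative settings.

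Otc, the ornithine transcarbamylase gene, lies on the X chromosome, of which these male mice have a single copy. It read 12.77, 12.80, 12.67, 12.89 and 12.74 in KO livers, against 12.67, 12.67, 12.61, 12.79 and 12.63 in WT livers. Of the KO livers 4 lay above the WT mean and 2 above every WT liver, with overlap between the groups. The difference of 0.098 (SE 0.052) did not pass (limma adjusted p = 0.383, exact two-sided permutation p = 0.0873), and its ratio of 1.07 had a 95% interval of 0.989 to 1.16.

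None of the cytosolic steps passed the test either. Both probe sets shared by Ass1 and Gm5424 overlapped between the genotypes. Probe set 10363541 read 13.55, 13.56, 13.38, 13.56 and 13.60 in KO livers, against 13.57, 13.45, 13.45, 13.49 and 13.56 in WT livers. Probe set 10471154 read 13.40, 13.38, 13.22, 13.40 and 13.42 in KO livers, against 13.39, 13.34, 13.34, 13.33 and 13.40 in WT livers. KO replicate 3 was the lowest array in both probe sets. In a fit over all named probe sets, where 5.15% were called, their differences were 0.026 (SE 0.053, limma adjusted p = 0.889) and 0.0044 (SE 0.048, limma adjusted p = 0.984).

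Asl, which encodes argininosuccinate lyase, had the widest spread. It read 12.19, 11.85, 11.68, 11.86 and 12.08 in KO livers, against 12.07, 12.02, 12.10, 12.17 and 12.20 in WT livers. KO replicates 2, 3 and 4 lay below every WT liver, while KO replicates 1 and 5 lay inside the WT range. The standard deviation was 0.202 in KO livers and 0.0751 in WT livers, 2.69 times as large, which was not tested. The difference of -0.18 (SE 0.086) did not pass (limma adjusted p = 0.313, exact two-sided permutation p = 0.111), with a ratio of 0.883 and a 95% interval of 0.776 to 1.00. Without KO replicate 3 the difference was -0.12, and without KO replicate 1 it was -0.24, with limma adjusted p = 0.564 and 0.109.

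Arg1 encodes the arginase that releases urea and closes the cycle. It read 12.73, 12.59, 12.56, 12.63 and 12.63 in KO livers, against 12.62, 12.43, 12.64, 12.59 and 12.73 in WT livers. The KO values lay inside the WT range. The difference of 0.027 had SE 0.058 (limma adjusted p = 0.892), and the ratio of 1.02 had a 95% interval of 0.934 to 1.11.

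Glutamine synthetase, the pericentral trap for ammonia, was measured by a pair of Glul probe sets, neither of which was called. In the one used in the fit (10374453) KO livers read 12.69, 12.69, 12.70, 12.68 and 12.79, and WT livers read 12.69, 12.72, 12.65, 12.85 and 12.86. In the other (10350753) KO livers read 12.44, 12.42, 12.44, 12.35 and 12.46, and WT livers read 12.38, 12.38, 12.33, 12.56 and 12.53. WT replicates 4 and 5 were the highest of all arrays in both, and the standard deviation in KO livers was 0.475 and 0.386 times that in WT livers. The differences were -0.040 (SE 0.053, limma adjusted p = 0.812) and -0.018 (SE 0.054, limma adjusted p = 0.933 in the fit over all named probe sets). The 95% intervals of the ratio were 0.899 to 1.05 and 0.910 to 1.07.

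Higher readings were seen in Glud1 and Oat. Glud1, the gene of mitochondrial glutamate dehydrogenase, read 12.70, 12.63, 12.55, 12.61 and 12.60 in KO livers, against 12.49, 12.48, 12.47, 12.51 and 12.52 in WT livers. It was the single gene of the 8 whose groups did not overlap, against 7.00% of all genes, and with 8 genes a count of 1 is near that background. The difference was 0.12 (SE 0.042), a ratio of 1.09 with a 95% interval of 1.02 to 1.16. It did not pass over all genes (limma adjusted p = 0.125). The exact two-sided permutation p was 0.00794, the smallest that 252 assignments of the arrays can give. Any gene whose groups do not overlap gets that value, so it adds nothing to the lack of overlap.

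Oat, the ornithine aminotransferase gene, read 13.37, 13.50, 13.31, 13.45 and 13.47 in KO livers, against 13.29, 13.17, 13.22, 13.22 and 13.34 in WT livers. All 5 KO livers lay above the WT mean and 4 above every WT liver, with KO replicate 3 inside the WT range. The difference was 0.17 (SE 0.051), a ratio of 1.12 with a 95% interval of 1.04 to 1.21 (limma adjusted p = 0.0840, exact two-sided permutation p = 0.0159). With a spread estimated as a trend over intensity and made robust, both genes passed, Glud1 at limma adjusted p = 0.0421 and Oat at 0.0264. Oat also passed with dim genes left out (0.0474). Without the 3 arrays of widest interquartile range the limma adjusted p was 0.268 for Glud1 and 0.275 for Oat, at differences of 0.13 and 0.15.

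**Figure D2:**
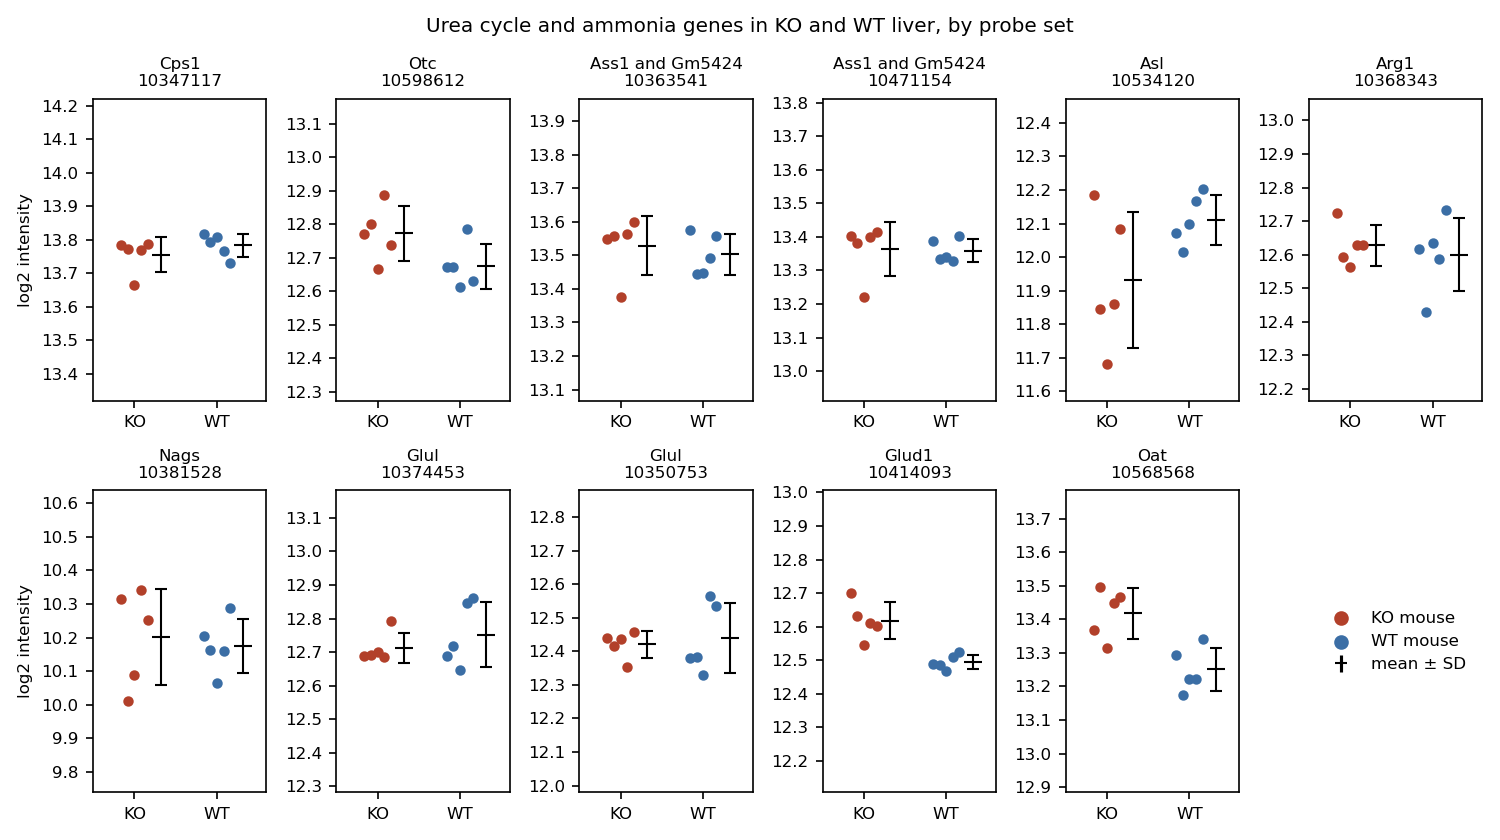
Log2 intensity (vertical axis, the same span in each panel) of every mouse for the 11 probe sets, with KO livers on the left, WT livers on the right, and bars for mean ± SD (n = 5 each). The groups overlap in every panel but Glud1, and the KO livers of Asl spread from 11.68 to 12.19.

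The genes also shared which mice read low or high. KO replicate 3 was the lowest KO liver in 6 of the 8 genes, and WT replicate 5 was the highest WT liver in 6 of the 8. How far genes outside this list share that order of mice was not tested. The median deviation from the WT mean over the 8 genes was -0.044 in KO replicate 3, between -0.0093 and 0.11 in the other KO livers, and 0.091 in WT replicate 5. KO replicate 3 had the narrowest interquartile range of the 10 arrays (2.80), and that of WT replicate 5 (2.94) was the next widest after the 3 widest arrays. The part of this spread in their low and high readings was not tested.

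Of the 10 genes, 6 matched a start site in the RefSeq promoter table of build GRCm38.p6. The 250 bases before the start of the genes with the largest differences upwards (Glud1 and Oat), and of those that hold the half-site of the DNA element bound by Rev-erb and ROR receptors (Glul and Nags), are shown 5′ to 3′ on the strand of the gene. Capitals mark AGGTCA or its reverse complement TGACCT, and in Glul the longer TAGGTCA that overlaps it.

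Glud1 (chr14:34310477-34310726, plus strand): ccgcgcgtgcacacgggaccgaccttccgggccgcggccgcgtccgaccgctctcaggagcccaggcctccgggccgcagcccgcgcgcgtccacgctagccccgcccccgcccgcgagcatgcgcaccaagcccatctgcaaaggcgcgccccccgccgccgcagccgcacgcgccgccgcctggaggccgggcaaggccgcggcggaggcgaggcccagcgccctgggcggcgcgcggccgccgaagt
Oat (chr7:132576399-132576648, minus strand): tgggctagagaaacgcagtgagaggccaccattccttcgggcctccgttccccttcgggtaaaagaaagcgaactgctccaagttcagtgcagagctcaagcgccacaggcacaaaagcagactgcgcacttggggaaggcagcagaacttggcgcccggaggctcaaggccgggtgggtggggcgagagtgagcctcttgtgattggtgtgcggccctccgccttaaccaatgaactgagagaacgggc
Glul (chr1:153899679-153899928, plus strand): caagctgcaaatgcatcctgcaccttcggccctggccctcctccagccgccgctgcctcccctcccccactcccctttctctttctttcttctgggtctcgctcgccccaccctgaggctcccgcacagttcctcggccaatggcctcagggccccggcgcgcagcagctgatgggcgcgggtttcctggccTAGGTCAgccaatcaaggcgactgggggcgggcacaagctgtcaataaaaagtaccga
Nags (chr11:102145263-102145512, plus strand): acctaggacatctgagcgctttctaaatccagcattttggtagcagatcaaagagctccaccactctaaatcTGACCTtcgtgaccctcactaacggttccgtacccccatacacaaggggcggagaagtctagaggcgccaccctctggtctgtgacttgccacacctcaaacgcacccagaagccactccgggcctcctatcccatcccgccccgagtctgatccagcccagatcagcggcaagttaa

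AGGTCA, searched on both strands, was present in 2 of the 6 promoters and in 14.0% of all 32851 promoters of that length. TAGGTCA was present in 1 of the 6, Glul, with its last base 52 bases before the start, and in 2.23% of all promoters. The match in Nags lies on the opposite strand, between 178 and 173 bases before the start. Both genes with a match had differences whose 95% interval spans 0. No match was found in these windows of Glud1, Oat, Otc and Ass1. The intervals of Otc and of both probe sets shared by Ass1 span 0 as well. Whether a match goes with a difference was not tested. The E-box CACGTG was found in Ass1, and in 6.02% of all promoters. The share of G and C in the 6 windows ran from 43.6% in Otc to 82.0% in Glud1, against a median of 52.4%.

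Several genes of amino acid breakdown read higher in KO livers, and the flow of nitrogen was not measured here. The list of these genes was drawn up with earlier results of these data known. Of its 36 measured genes, 16 rose and 0 fell in KO livers in limma, with a median difference of 0.17. Over all genes 3.17% were higher and 2.44% lower. With dim genes left out 19 of 35 rose and 0 fell, against 699 higher and 572 lower of 9967 genes. Without the 3 arrays of widest interquartile range 7 of the 36 were called, all higher, while 527 of all genes were called, against 1119 with every array. Gldc, the decarboxylase of the glycine cleavage system, which frees ammonia from glycine, read 11.73 to 11.92 in KO livers, against 10.44 to 10.60 in WT livers, a 2.51-fold rise (limma adjusted p = 4.3e-08). Amt of the same system rose 1.53-fold, while Gcsh and Dld of that system did not pass (limma adjusted p = 0.955 and 0.424). The aminotransferase gene Agxt rose 1.47-fold. Hal, Uroc1 and Amdhd1, the first steps of histidine breakdown, which also frees ammonia, rose 1.34-fold, 1.24-fold and 1.44-fold. The 10 further called genes, picked with their values in view, were Agxt2, Kynu, Cbs, Cth, Bhmt, Aass, Gcdh, Ivd, Mccc1 and Mccc2, which rose by 0.18 to 0.37 on the log2 scale.

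**Figure D3:**
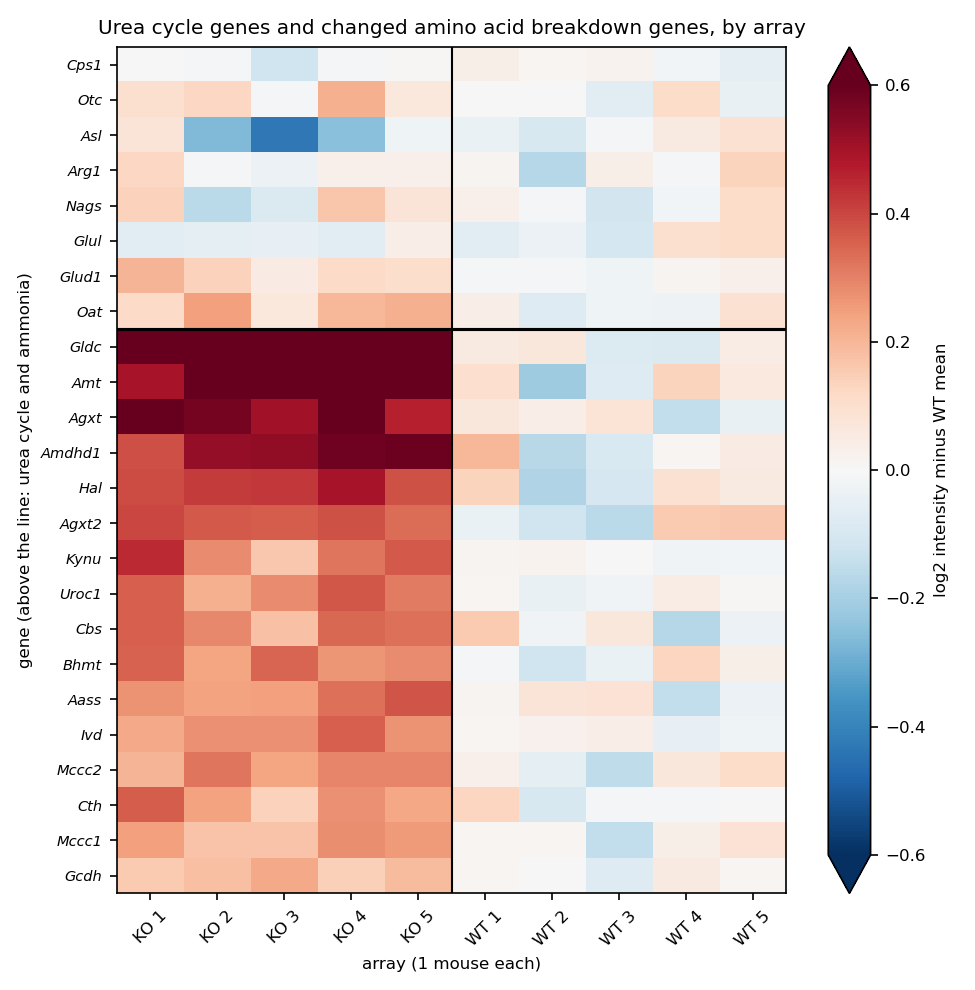
Log2 intensity minus the WT mean (colour) for the 8 urea cycle and ammonia genes in the fit and the 16 changed genes of amino acid breakdown (rows), with a column for each mouse, KO livers on the left and WT livers on the right. The breakdown genes were chosen because they were called, so their colour is a description, and the scale ends at 0.6 in both directions, below the difference of 1.33 of Gldc.

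Among 11 carriers and carbonic anhydrases around the cycle, the mitochondrial anhydrases rose and the other 9 genes did not pass. Car5a, which supplies bicarbonate to CPS1 in liver mitochondria, read 11.05, 11.05, 11.04, 11.05 and 10.95 in KO livers, against 10.71, 10.42, 10.57, 10.76 and 10.93 in WT livers. It rose 1.27-fold (SE 0.081 on the log2 scale, limma adjusted p = 0.0243), which no longer passed when WT replicate 3 or 1 of KO replicates 1 to 4 was left out (limma adjusted p at most 0.0635), or with the 3 arrays of widest interquartile range left out (0.122). Car5b rose 1.95-fold (limma adjusted p = 3.1e-06).

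Of 19 genes of glutamine, glutamate and asparagine metabolism 3 rose and 3 fell. Asns, the asparagine synthetase gene, whose enzyme takes nitrogen from glutamine, fell to 0.140-fold of WT and the kynurenine aminotransferase gene Kyat1 to 0.755-fold, while the aminotransferase genes Abat and Gpt rose 1.21-fold each. Kyat3 (lower) and the asparaginase gene Aspg (higher) completed the 6 and were picked with their values in view. Aspg (limma adjusted p = 0.0393) did not pass in 12 of 20 settings, among them 8 of the 10 that left out a single array, and without the 3 arrays of widest interquartile range neither Aspg nor Gpt passed (limma adjusted p = 0.172 and 0.0618). Of 21 genes of arginine, ornithine, proline and polyamine metabolism, Ddah1, whose enzyme degrades methylated arginines, rose 1.41-fold, the agmatinase gene Agmat rose 1.16-fold, and the spermidine synthase gene Srm fell to 0.689-fold, which did not pass in 13 of 20 settings.

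Of 20 transporters of ammonia, urea and amino acids, the aquaporin gene Aqp8 rose 2.03-fold. The amino acid transporter genes Slc1a5 (0.809-fold) and Slc7a5 (0.810-fold) fell. Slc1a5, at 6.95 in KO and 7.25 in WT livers, was among the genes that the filter on dim genes left out. Without the 3 arrays of widest interquartile range neither Slc1a5 nor Slc7a5 passed (limma adjusted p = 0.0575 and 0.115), and 0 of the 20 were lower. Of 22 regulators of urea cycle genes or of liver zones, 1 was called (4.55%, against 5.61% of all genes). It was the amino acid response factor gene Atf4, which fell to 0.847-fold. It no longer passed when any 1 of 6 arrays was left out (WT replicates 2, 3 and 5 and KO replicates 2, 3 and 5), or without the 3 arrays of widest interquartile range (limma adjusted p at most 0.102). Over these 6 lists, 129 genes other than the urea cycle and ammonia genes were measured, of which 24 rose and 7 fell. Their median difference was 0.052. The share called was 24%, against 5.61% of all genes. By list it was 44.4% for breakdown, 31.6% for glutamine, glutamate and asparagine, and 18.2% for carriers and anhydrases. It was 15% for transporters and 14.3% for arginine, ornithine, proline and polyamines. With dim genes left out, 699 of all 9967 genes were higher and 572 lower. Transporters then had 1 of 13 higher and 1 lower, and regulators 0 of 22 higher and 1 lower. Carriers and anhydrases had 2 of 8 higher and 0 lower. The arginine list had 2 of 15 higher and 1 lower, and the glutamine list 4 of 18 higher and 3 lower. Over the 6 lists, without the 3 arrays of widest interquartile range, 12 rose and 3 fell.

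The zones in which the urea cycle and glutamine synthetase lie were also read through their other markers. Of 14 further periportal genes, 5 rose and 2 fell (50% called, against 5.61% of all genes). With dim genes left out, 5 rose and 2 fell of the 18 measured periportal genes, urea cycle genes included. Over all 9967 genes of that setting 699 were higher and 572 lower. The immunoglobulin receptor gene Pigr rose 1.30-fold and the apolipoprotein gene Apoa4 2.08-fold, besides Hal and Uroc1, which were also counted among the breakdown genes. Ctsc (1.26-fold) also rose, and the E-cadherin gene Cdh1 (0.740-fold) and the growth factor gene Igf1 (0.851-fold) fell, all 3 picked with their values in view. Without the 3 arrays of widest interquartile range 4 of the periportal genes rose and 0 fell, with Ctsc, Cdh1 and Igf1 at limma adjusted p = 0.228, 0.0756 and 0.118. With single arrays left out, Ctsc did not pass in 7 of 10 settings and Igf1 in 4. The mean level of the periportal genes lay between 11.85 and 11.95 in KO and between 11.67 and 11.79 in WT livers. Of the 14 differences 9 were above 0. The largest upwards were those of Apoa4 (1.06) and Mfsd2a (0.85). Mfsd2a was not called (limma adjusted p = 0.106) and read 10.35 in WT replicate 4. Cyp2f2 (-0.00044), Pck1 (-0.12) and Etnppl (-0.52) were not called either. Of 19 further pericentral genes, Cyp2c37 (1.33-fold) and Lect2 (1.17-fold) rose and 17 did not pass (10.5% called). Lect2 did not pass after median centring or without the 3 arrays of widest interquartile range (limma adjusted p = 0.0777 in the second), which left 1 call. The mean level of the pericentral genes lay between 10.61 and 10.73 in KO and between 10.50 and 10.68 in WT livers. Of the marker lists of 12 other cell types and tissues, 2 held a called gene. Sox9 (1.54-fold) was 1 of 5 cholangiocyte genes, whose median difference was -0.0071, with 2 of the 5 above 0. Fabp2 (1.33-fold, limma adjusted p = 0.0405, groups overlapping) was 1 of 5 intestinal genes, whose median difference was 0.12, with all 5 above 0. Among these Lgals4, not called, read 9.48 and 9.18 in KO replicates 3 and 5. Mean levels of the cholangiocyte genes were 6.80 to 7.01 in KO and 6.69 to 6.82 in WT livers. Those of the intestinal genes were 7.59 to 8.02 in KO and 7.49 to 7.58 in WT livers. The part of these zones, cell types and tissues in the readings of the urea cycle and ammonia genes was not tested.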

How the data were processed

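The deposited intensities of 10 Affymetrix Mouse Gene 1.0 ST arrays (5 KO, 5 WT) were made by the authors with RMA and Partek, per the submitters' processing notes, without versions. They are on a linear scale, and log2 was taken first. Array medians lay between 156 and 165. The table has no detection calls, so how far a value lies above background is unknown. Precision is limited by the number of arrays. Symbols were taken from the array annotation, which gave 1 symbol to 21631 probe sets, several to 1317 and none to 4593. The probe set of highest mean stood for a gene, which left 19933 genes. KO and WT were compared with limma 3.58.1 (R 4.3.3; lmFit, eBayes, two-sided, no covariates, Benjamini-Hochberg over all genes). Each p-value rests on the spread among these 10 mice. Exact permutation tests used all 252 assignments of arrays. The genes and the 22 gene lists were chosen with earlier results of these data known. Named genes were all 10 urea cycle and ammonia genes, Nr1d1, Arntl, and of each other pathway or zone list every called gene, or the 4 of smallest adjusted p where more were called. Gcsh, Dld, Mfsd2a, Cyp2f2, Pck1, Etnppl and Lgals4 were not called and were picked with their values in view. For called urea cycle or ammonia genes the most similar profiles were to be named, and none was called. Promoter sequences come from RefSeq. The fit was tested on simulated data. Alternatives covered the choice of probe set, a filter on dim genes, scaling, a pseudocount of 16, the variance model, array weights and left-out arrays.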

Additional observations from a re-analysis of the deposited data

Results flagged for a closer look

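Single livers stood far from the rest of their group in 4 of 92 groups of 5 examined, and chance alone gives about 1 in 20. Cps1 read 13.66 in KO replicate 3, with the nearest KO liver at 13.77. Glul read 12.79 in KO replicate 5, with the nearest KO liver at 12.70. Car5a read 10.95 in KO replicate 5, with the nearest KO liver at 11.04. Gldc read 11.73 in KO replicate 2, with the nearest KO liver at 11.87. The cause was not tested in any of them.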

How the results depend on the processing

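Of the urea cycle and ammonia genes, 0 fell under any of the 20 settings, and 0 rose under 18 of them. With dim genes left out 1 of the 8 rose (Oat), while 699 of all 9967 genes were higher and 572 lower. With a robust trend in the variance 2 of the 8 rose (Glud1 and Oat), while 667 of all 19933 genes were higher and 510 lower. The cause was not tested. Arg1 and Nags, both far from the threshold, turned their sign. Arg1 was at -0.00798 after quantile normalization and between -0.015 and 0.061 with single arrays left out. Nags was at -0.0093 with array weights, at -0.030 without the 3 arrays of widest interquartile range, and between -0.0084 and 0.074 with single arrays left out. The other 6 genes in the fit kept their sign in all 20 settings. With single arrays left out 805 to 1248 genes were called, and of the other pathway lists 21 to 25 rose and 5 to 10 fell. Without the 3 arrays of widest interquartile range, with fewer arrays in the fit, 527 genes were called, and 12 pathway genes rose and 3 fell. No paired analysis was possible because the labels give no replicate numbers that the groups share.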
